A study of Apis mellifera with 27 samples.

Results

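The nicotinic acetylcholine receptor subunit genes of the honey bee (Apis mellifera) were taken as every gene identifier beginning with nAChR, which gave 10 of the 12319 identifiers in the count table: nAChRa1, nAChRa2, nAChRa3, nAChRa4, nAChRa6, nAChRa7, nAChRa8, nAChRa9, nAChRb1 and nAChRb2. All 10 passed the filter on low counts, which left 9816 genes for testing. The samples were pieces of mushroom body, a brain centre of learning and memory, cut out by laser capture to enrich its most numerous intrinsic neurons, the small Kenyon cells, from foragers with time training. Polyadenylated RNA was sequenced from foragers of colony 1 and colony 2 taken at 06:00, 10:00, 14:00, 18:00 and 22:00 of day 11 and at 02:00 and 06:00 of day 12. Each colony had 2 libraries at each of the 7 time points, except that 1 colony 2 library of 06:00 on day 11 was not analysed here, which left 27 libraries, 14 from colony 1 and 13 from colony 2. The colonies were independent and their behavioural experiments were run separately, so colony and experiment cannot be told apart. No genetic change or drug was labelled in any group. Bee age, training hour and the number of bees per library are not given in the labels. Nor do the labels tie replicates to separate bees, so the p-values reflect the spread of these libraries, which may be technical only.

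Nicotinic receptors are pentameric cation channels of the Cys-loop family that open when acetylcholine binds at the interface between subunits. Alpha subunits carry a pair of adjacent cysteines in the binding site, beta subunits lack it, and the subunit mix of a receptor sets its response to acetylcholine and to drugs. Kenyon cells receive acetylcholine from the projection neurons of the antennal lobe, their fast excitatory olfactory input, and insect nicotinic receptors are the targets of the neonicotinoid insecticides.

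Total counts ranged from 5589770 to 12277539 per library, 8732841 to 12277539 in colony 1 and 5589770 to 10846551 in colony 2. Levels are given as CPM, with library sizes adjusted by TMM. On the first principal component of all genes, the 3 libraries farthest from the median were taken as standing apart, a number set by the rule. All were of colony 2, namely the 06:00 day 11 library (score 77.6) and both 10:00 libraries (94.7 and 66.0). Replicate 1 of 14:00 in colony 2 had the next score, 45.0, against -33.3 to 10.7 in the rest, and was kept. Results that rest on the 3 are given with and without them. The label of the tissue was checked on 9 Kenyon cell genes, whose summed level ranged from 2959 to 13311 CPM with none at 0 in any library. The lowest sum was that of the 06:00 day 11 library of colony 2, against 7277 to 10503 CPM in colony 1. The next lowest, 5148 CPM, was that of replicate 2 of 06:00 on day 12 in colony 2. Markers of other cells were lower in sum but present: 16.6 to 705 CPM for 7 troponin genes of muscle, 42.3 to 375 CPM for 4 opsins of photoreceptors, 28.0 to 211 CPM for Eaat-2 of glia, and 8.21 to 95.5 CPM for 11 gland, fat body and hemolymph genes. In the 3 libraries standing apart these sums were 196 to 705, 285 to 375, 126 to 211 and 8.21 to 22.8 CPM. Several defining markers were listed at 0 in many libraries, TpnCIIb in 23, Hex70c in 26, Mrjp3 in 22 and Vg in 14. Of the 9 Kenyon cell genes, 4 mark small cells (Ks-1, E74, Tk and Ecr) and 3 mark large or middle cells (Camkii, Pkc and Mblk-1). The large and middle markers summed to 2448 to 11043 CPM, so transcripts of this joint list were also in the captured tissue. Their sum does not tell large from middle cells.

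All 10 subunits gave counts in the captured tissue, with wide differences in counts between genes. CPM is not corrected for transcript length, so the order of these levels is not an order of transcript number. Over the 27 libraries nAChRa8 averaged 206 ± 21.6 CPM (SD), nAChRa6 153 ± 82.0 CPM, nAChRa7 150.3 ± 50.5 CPM, nAChRa3 96.6 ± 13.9 CPM and nAChRa2 84.5 ± 19.4 CPM. The alpha subunits nAChRa1 and nAChRa4 averaged 44.4 ± 12.3 and 16.8 ± 4.84 CPM, and nAChRb1, which assembles with alpha subunits, 27.2 ± 5.85 CPM. The divergent subunits nAChRa9 and nAChRb2 averaged 7.81 ± 3.51 and 4.33 ± 1.65 CPM. They rested on 0 to 142 and 13 to 86 counts per library, so their courses carry the widest errors. In the 10:00 replicate 2 library of colony 2, nAChRa9 had 0 counts, which allows up to 3 counts or 0.515 CPM.

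The spread among libraries differed between subunits. The level of nAChRa6 reached from 62.5 to 329 CPM and that of nAChRa7 from 62.2 to 279 CPM. The level of nAChRa8 stayed between 172 and 241 CPM with a median of 202 CPM, and that of nAChRa3 between 70.0 and 121 CPM with a median of 92.6 CPM. The wide range of nAChRa6 came from colony 2, where libraries lay between 62.5 and 329 CPM (201 ± 96.2, SD, n = 13), while those of colony 1 lay between 70.5 and 139 CPM (107 ± 17.2, n = 14).

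**Figure D1:**
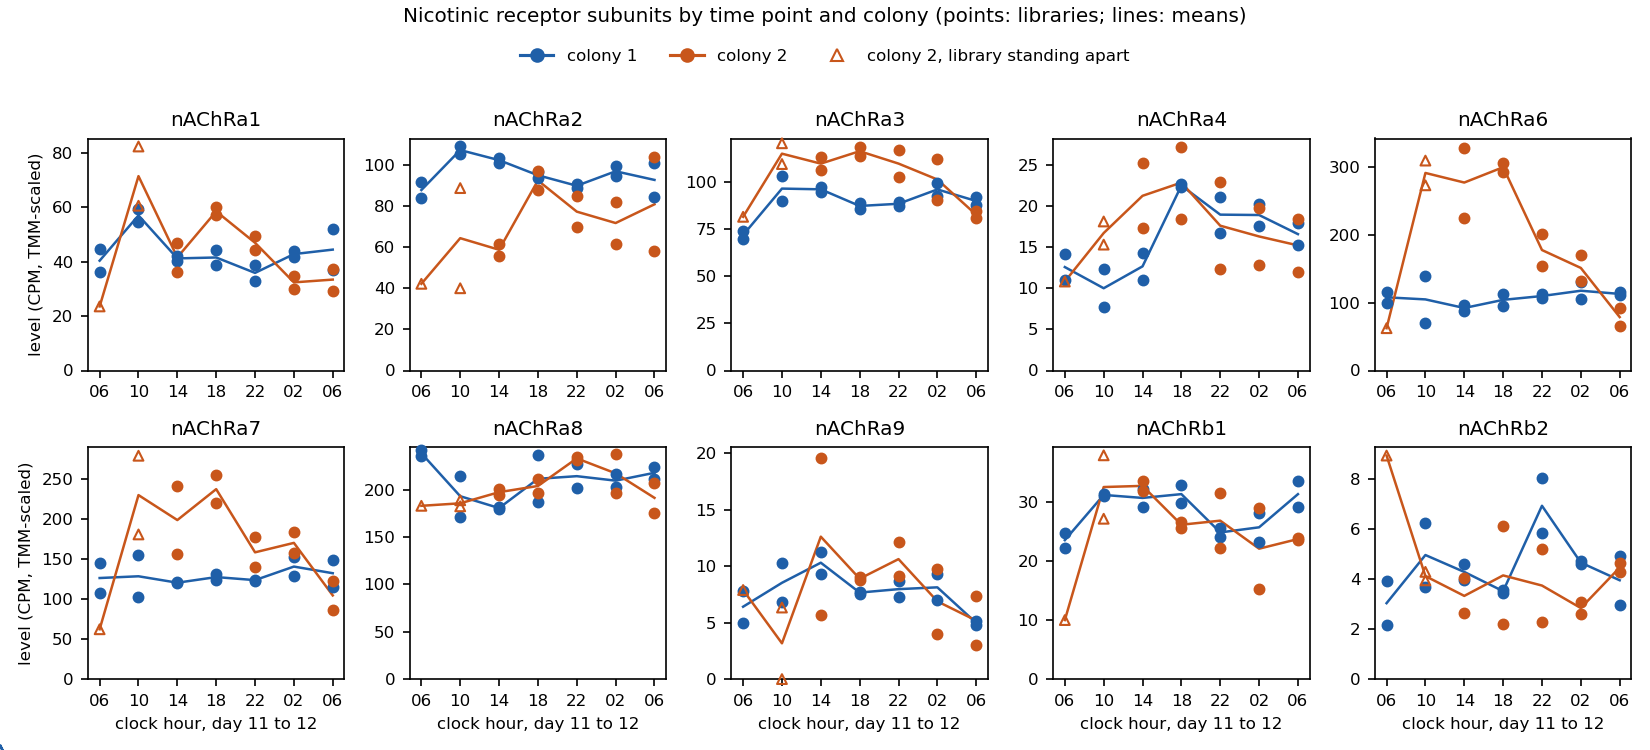
Level of each subunit (CPM, TMM-scaled, vertical axis from 0) against clock hour from 06:00 of day 11 to 06:00 of day 12. Points are libraries, lines join the means of each colony, and open triangles are the 3 colony 2 libraries standing apart. In colony 2, nAChRa6 was at 226 to 329 CPM from 10:00 to 18:00 and at 62.5 to 91.8 CPM at both 06:00 time points, while colony 1 stayed between 70.5 and 139 CPM.

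The first comparison asked whether subunits differed among the 7 time points in both colonies together. At an adjusted p under 0.05 from edgeR's quasi-likelihood test with Benjamini-Hochberg adjustment, 0 of 10 subunits were called, against 2.29% of all genes. At an unadjusted p under 0.05 the count was 3 of 10. For a 24 h cosine 0 of 10 were called as well, against 4.31% of all genes, with 3 at an unadjusted p under 0.05. The peak-to-trough size of the fitted cosine had a median of 0.44 (log2) over the subunits and 0.37 over all genes.

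The subunit closest to a call over time was nAChRa1, an alpha subunit whose Drosophila counterpart takes part in the response to neonicotinoids. Its levels at 10:00 were 59.3 and 54.8 CPM in colony 1 and 60.6 and 82.4 CPM in colony 2. At the 6 other time points colony 1 lay between 33.0 and 52.2 CPM and colony 2 between 23.6 and 60.0 CPM. In each colony both 10:00 libraries were above every library of another time, and 2 of these 4 are among those standing apart. The adjusted p over time was 0.0965 in edgeR, 0.0144 in DESeq2 and 0.0318 in limma-voom with quality weights. Between 10:00 and 22:00 the log2 difference was 0.63 with an SE of 0.207, and its adjusted p of 0.102 missed the threshold. In this contrast 0 of 10 subunits were called, with 1 at an unadjusted p under 0.05, against 2.16% of all genes, 0.937% higher and 1.22% lower at 10:00.

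The alpha subunit nAChRa3 was lowest at 06:00 of day 11, with 73.96 and 70.0 CPM in colony 1 and 81.6 CPM in colony 2. Its highest mean over both colonies was 106 ± 12.8 CPM (SD, n = 4) at 10:00. These pooled means declined slowly from there to 86.4 ± 4.74 CPM at 06:00 of day 12. Neither colony declined steadily: colony 2 had its highest mean, 116.5 CPM, at 18:00, and colony 1 averaged 87.4 CPM at 18:00 and 96.2 at 02:00. The adjusted p over time was 0.174 in edgeR and 0.0346 in DESeq2. The most abundant counts, those of nAChRa8, had their highest mean of 224 ± 15.1 CPM at 22:00 and their lowest of 189 ± 10.2 CPM at 14:00, with a fitted peak near midnight, and neither test called it (adjusted p = 0.627 over time and 0.250 for the cosine).

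The low-count alpha subunit nAChRa4 had its highest mean at 18:00, with 22.6 and 22.3 CPM in colony 1 and 27.2 and 18.4 CPM in colony 2. It was lower in the morning, with 14.1, 11.0 and 10.8 CPM at 06:00 of day 11 and 7.68, 12.3, 18.1 and 15.3 CPM at 10:00, the first pair of each from colony 1. In colony 1 both 18:00 libraries were above all others, while in colony 2 the libraries of different times overlapped. Over both colonies the cosine gave a log2 peak-to-trough size of 0.65 and an adjusted p of 0.138.

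At 14:00 against 02:00, 0 of 10 subunits were called, with 0 at an unadjusted p under 0.05, against 0.0917% of all genes, 0.0611% higher and 0.0306% lower at 14:00. The log2 differences ran from -0.18 for nAChRa8 to 0.61 for nAChRa9, and their median was 0.04 against 0.01 over all genes. Neither beta subunit was called, with an adjusted p over time of 0.291 for nAChRb1 and 0.966 for nAChRb2. The level of nAChRb1 was 31.8 ± 4.45 CPM at 10:00 and 23.9 ± 6.29 CPM at 02:00.

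The next comparison set colony 2 against colony 1 over all time points. It called 3 of 10 subunits, a share near the 24.9% of all genes called. Colony 2 was higher for nAChRa6 and nAChRa3 (10.6% of all genes were called higher) and lower for nAChRa2 (14.3% were called lower). The median log2 difference of the 10 subunits was -0.02, and that of all genes -0.04. In bulk tissue, fewer cells of a type and less RNA per cell cannot be told apart.

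**Figure D2:**
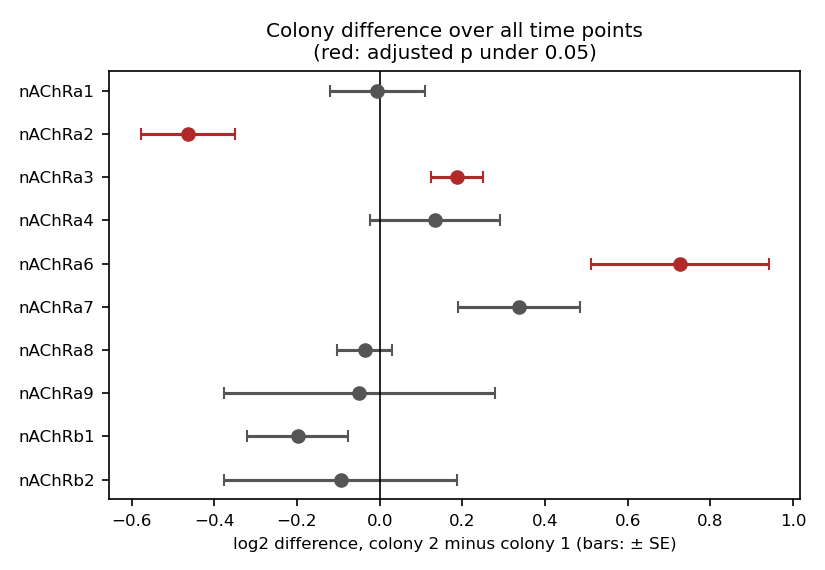
Log2 difference of each subunit between the colonies (colony 2 minus colony 1, horizontal axis) over all time points, with bars of ± SE from edgeR. Red marks an adjusted p under 0.05: nAChRa2 lay at -0.46, nAChRa3 at 0.19 and nAChRa6 at 0.73, and the bars of nAChRa9 and nAChRb2 were the widest.

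The alpha subunit nAChRa2 was lower in colony 2. Colony 1 ranged from 84.0 CPM over a median of 95.7 to 109.7 CPM, and colony 2 from 40.1 over 69.9 to 104.0 CPM. The ranges overlapped, yet the colony 2 mean was the lower one at each of the 7 time points, and at 5 of them both colonies' libraries did not overlap. The log2 difference was -0.46 with an SE of 0.114 (adjusted p = 0.00482). By time point it was smallest at 18:00, where colony 1 had 93.6 and 96.8 CPM and colony 2 97.1 and 88.2 CPM, and largest at 06:00 of day 11, where colony 1 had 92.0 and 84.0 CPM and colony 2 42.3 CPM. Without the 3 libraries standing apart the log2 difference was -0.34 (adjusted p = 0.0220).

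The gain of nAChRa3 in colony 2 was small. Colony 1 ranged from 70.0 CPM over 89.8 to 103.3 CPM and colony 2 from 80.9 over 109.7 to 121 CPM. The colony 2 mean was higher at 6 of 7 time points, with no overlap at 5 of them, and lower at 06:00 of day 12. The log2 difference was 0.19 with an SE of 0.0629 (adjusted p = 0.0298). The call was lost without the 3 libraries standing apart (adjusted p = 0.105). Leaving out any of 6 single libraries lost it as well, with an adjusted p from 0.0501 to 0.0548. These were replicate 2 of 10:00, both replicates of 18:00 and replicate 2 of 22:00 in colony 1, and replicate 2 of 18:00 and of 22:00 in colony 2.

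Among the subunits the largest colony difference was that of nAChRa6, the subunit whose Drosophila counterpart is the target of the spinosyn insecticides. Colony 2 was higher by 0.73 on the log2 scale with an SE of 0.215 (adjusted p = 0.0175), and by 0.74 without the 3 libraries standing apart (adjusted p = 0.0454). With the replicates of a group summed into 1 library, 0 of 10 subunits were called, with an adjusted p of 0.0918 for nAChRa2, 0.239 for nAChRa3 and 0.224 for nAChRa6. The alpha subunit nAChRa7 had a log2 difference of 0.34 with an SE of 0.148 and was not called (adjusted p = 0.0952). It was called without the 06:00 day 11 library of colony 2 (log2 difference 0.46, adjusted p = 0.0112) and without replicate 2 of 06:00 on day 12 in colony 2 (0.40, adjusted p = 0.0429). DESeq2 and limma-voom with quality weights called it as well, with adjusted p-values of 0.0481 and 0.0183. The other 6 subunits had log2 differences from -0.20 for nAChRb1 to 0.13 for nAChRa4 and adjusted p-values of 0.244 or more. For nAChRb1, colony 1 ranged from 22.3 CPM over 29.1 to 33.5 CPM and colony 2 from 9.99 over 26.7 to 37.9 CPM, and the lowest value was that of the 06:00 day 11 library of colony 2. The same library had the highest level of nAChRb2, 8.94 CPM, against 2.16 to 8.03 CPM in colony 1. For nAChRa9 the highest level was 19.6 CPM, in replicate 1 of 14:00 in colony 2, where the other replicate had 5.66 CPM.

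The interaction of colony and time point, which asks whether the course over the day differed between the colonies, called nAChRa6, nAChRa7 and nAChRa1. These are 3 of 10 subunits, a share near the 22.5% of all genes called. Without the 06:00 day 11 library of colony 2 the calls of nAChRa7 and nAChRa1 were lost (adjusted p = 0.155 and 0.195), and that of nAChRa6 was kept. The adjusted p was 0.000256 for nAChRa6, 0.00508 for nAChRa7 and 0.0292 for nAChRa1. A smaller p was found for 0.479%, 8.09% and 18.1% of all genes, in that order. The other 7 subunits had adjusted p-values from 0.230 for nAChRb1 to 0.855 for nAChRa9.

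In colony 1, nAChRa6 was level through the day. Its libraries had 116 and 100.4 CPM at 06:00 of day 11, 139 and 70.5 at 10:00, 96.4 and 88.1 at 14:00 and 113 and 95.6 at 18:00. The night libraries had 113 and 107 CPM at 22:00, 131 and 105 at 02:00 and 115 and 111 at 06:00 of day 12. The highest mean of a time point was 1.28 times the lowest, and the spread within the 10:00 pair was wider than that between time points.

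In colony 2 the same gene rose and fell. The 06:00 day 11 library had 62.5 CPM, the 10:00 libraries 273 and 309.9 CPM, the 14:00 libraries 226 and 329 CPM and the 18:00 libraries 293 and 307 CPM. At 22:00 the libraries had 154 and 202 CPM, at 02:00 170.2 and 133 CPM and at 06:00 of day 12 91.8 and 65.9 CPM. All 6 libraries from 10:00 to 18:00 were above all 7 others, and both 06:00 time points were at the bottom. The highest mean, 300.1 CPM at 18:00, was 4.80 times the lowest, and 3.81 times without the single 06:00 day 11 library.

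Colony 2 levels of nAChRa6 were therefore below those of colony 1 at dawn and above them for the rest of the day. The fold of colony 2 over colony 1, as a ratio of mean CPM, was 0.578 at 06:00 of day 11, 2.78 at 10:00, 3.01 at 14:00 and 2.88 at 18:00. It was 1.62 at 22:00, 1.29 at 02:00 and 0.697 at 06:00 of day 12. At each of the 7 time points the libraries of the colonies did not overlap, with colony 2 above at 5 and below at 2. The dawn libraries of colony 2 included those with the lowest sums of the 9 Kenyon cell genes. These were 2959 CPM at 06:00 of day 11 and 5148 CPM in replicate 2 of 06:00 on day 12. Replicate 1 of 06:00 on day 12 had 8413 CPM, within the 7277 to 10503 CPM of colony 1. The part of Kenyon cell content in the dawn levels was not tested.

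**Figure D3:**
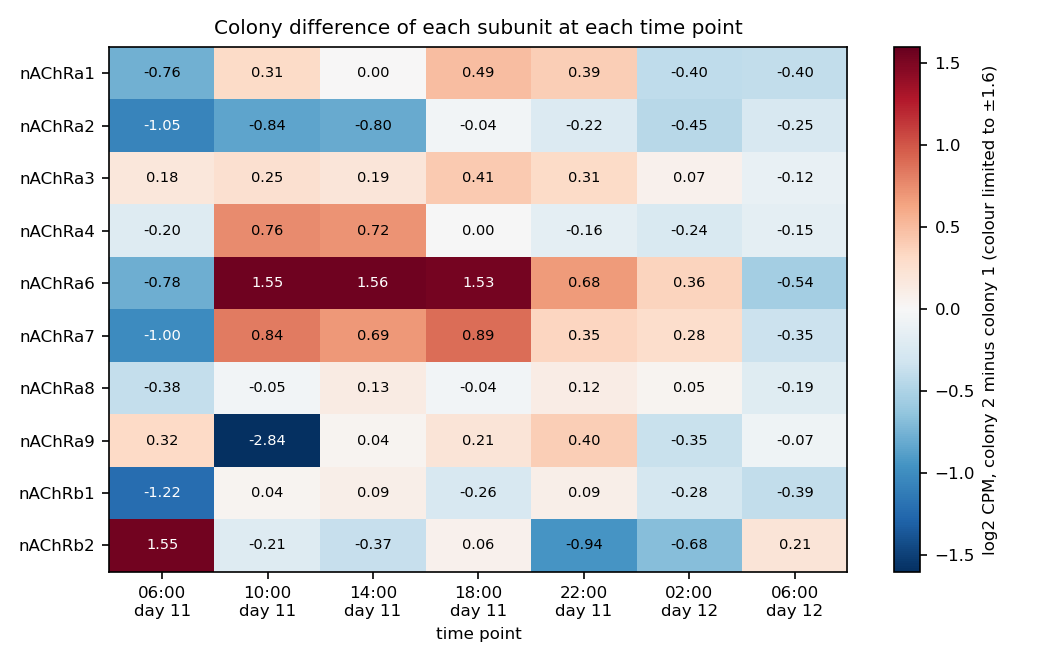
Log2 difference of mean log2 CPM between the colonies (colony 2 minus colony 1, red higher and blue lower in colony 2) for each subunit and time point. The row of nAChRa6 ran from -0.78 at 06:00 of day 11 to 1.56 at 14:00 and -0.54 at 06:00 of day 12, and that of nAChRa7 changed sign at the same times, while that of nAChRa2 was negative throughout. The value of nAChRa9 at 10:00 includes a library at 0 counts and depends on the prior count of 2.

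The course of nAChRa7 had the same shape with a smaller size. Colony 2 had 62.2 CPM at 06:00 of day 11, 181 and 279 CPM at 10:00, 156 and 241 CPM at 14:00 and 219.7 and 255 CPM at 18:00. It then had 139.7 and 177 CPM at 22:00, 183 and 157 CPM at 02:00 and 122 and 86.7 CPM at 06:00 of day 12. Daytime and night libraries overlapped here, in contrast to nAChRa6, while the 3 libraries of 06:00 were the lowest of colony 2. The highest mean of colony 2 was 3.81 times the lowest, which is the single 06:00 day 11 library, and 2.27 times without it. In colony 1 the libraries lay between 102 and 155 CPM, and the highest mean was 1.17 times the lowest. Colony 2 was above colony 1 without overlap at 5 time points and below it at 06:00 of day 11.

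For nAChRa1 both colonies had the 10:00 maximum, where colony 2 was above colony 1 without overlap by 0.31 on the log2 scale. The courses parted at other times as well. Colony 2 was below colony 1 at 06:00 of day 11, with 23.6 against 44.6 and 36.2 CPM, and at 02:00, with 30.1 and 34.8 against 41.7 and 43.9 CPM. It was above at 18:00, with 60.0 and 57.1 against 44.4 and 38.8 CPM, and at 22:00, with 49.5 and 44.5 against 33.0 and 38.8 CPM. The groups did not overlap at these times. The fold of the highest over the lowest mean was 3.03 in colony 2 and 1.59 in colony 1. Without the 06:00 day 11 library of colony 2 it was 2.21 there.

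Part of these calls rested on the libraries standing apart. Without the 3 of them colony 2 has no library at 06:00 of day 11 or 10:00, so the interaction covers the other 5 time points only. It then called 9 genes in all, 0.0901% of those tested, and nAChRa6 was the only subunit among them (adjusted p = 0.0422, the number 8 by p of all genes). Then nAChRa7 had an adjusted p of 0.236 and nAChRa1 of 0.242. The call of nAChRa1 was lost without 6 other single libraries too, 1 at a time (adjusted p from 0.0503 to 0.0791), namely replicate 1 of 06:00 on day 11, replicate 2 of 10:00, replicate 2 of 18:00, replicate 1 of 22:00 and replicate 2 of 02:00 in colony 1 and replicate 1 of 18:00 in colony 2. The call of nAChRa6 was kept in all 33 alternative fits, with an adjusted p between 2.56e-05 and 0.0105 when single libraries were left out. The interaction of nAChRa2 was called without replicate 2 of 10:00 in colony 2 (adjusted p = 0.0113) and that of nAChRa9 without replicate 1 of 10:00 in colony 2 (0.0107).

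Each colony was also fitted alone. In colony 2, 3 of 10 subunits changed over the time points, against 21.2% of all genes, with adjusted p-values of 4.40e-05 for nAChRa6, 0.00127 for nAChRa7 and 0.0106 for nAChRa1. Without the libraries standing apart, which leaves no 10:00 library in this colony, 1 of 10 changed, against 1.58% of all genes. This was nAChRa6 (adjusted p = 0.00423), which had the number 2 p of all 9547 genes tested. In the same libraries its 24 h cosine was called with a peak at 17.4 h and a 3.14-fold peak-to-trough ratio (adjusted p = 0.00787, with 2.74% of all genes called), and 14:00 exceeded 02:00 by 0.86 on the log2 scale with an SE of 0.223 (adjusted p = 0.0496, 2.27% of all genes). With all colony 2 libraries the cosine of nAChRa6 had a 3.28-fold ratio and a peak at 15.8 h but missed the threshold (adjusted p = 0.172), where 0.00981% of all genes were called. The difference of 14:00 and 02:00 was 0.86 there as well (adjusted p = 0.0637, 0.873% of all genes called).

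In colony 1 alone, the calls were those of nAChRa4 and nAChRa1. Over the time points 0 of 10 were called, against 3.82% of all genes, and nAChRa6 had an adjusted p of 0.952 and nAChRa7 of 0.973. The cosine called 1 of 10, against 5.4% of all genes. This was nAChRa4, with a peak at 22.0 h and a 1.96-fold peak-to-trough ratio (adjusted p = 0.0405). At 10:00 against 22:00, 1 of 10 was called, against 4.31% of all genes. This was nAChRa1, higher at 10:00 by 0.69 on the log2 scale with an SE of 0.174 (adjusted p = 0.0307). At 14:00 against 02:00, 0 of 10 were called in colony 1, against 0.218% of all genes. In colony 2, 10:00 against 22:00 called 0 of 10, against 3.34% of all genes, and gave 0.61 for nAChRa1 with an SE of 0.289 (adjusted p = 0.266). The interaction test above, over all time points, gave adjusted p = 0.0292 for this gene, and that of nAChRa4 was 0.484.

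The summed large and middle Kenyon cell markers moved with nAChRa6 and nAChRa7, while some other Kenyon cell genes followed less closely. That sum was mostly Camkii, with a mean of 4414 CPM against 1526 for Mblk-1 and 825 for Pkc. The small marker sum was mostly Tk, with 1178 CPM against 236 for E74, 66.7 for Ecr and 24.1 for Ks-1. The interaction called 8 of the 9 Kenyon cell genes, all but Ecr, an ecdysone receptor, against 22.5% of all genes. With the 3 libraries standing apart left out it called 0 of the 9, against 0.0901% of all genes. The summed level of the 3 large and middle Kenyon cell markers in colony 2 averaged 2448 CPM at 06:00 of day 11, 9020 at 10:00, 8241 at 14:00 and 10313 at 18:00. It then averaged 7426 CPM at 22:00, 6866 at 02:00 and 5105 at 06:00 of day 12. In colony 1 the means lay between 5772 and 6682 CPM, so this sum had a level course in colony 1 and a daytime maximum in colony 2, as nAChRa6 had. The 4 small Kenyon cell markers summed in colony 2 to 405 CPM at 06:00 of day 11, between 1170 and 1903 CPM at the other time points and, in colony 1, to means of 1469 to 1685 CPM. Single genes differed: at 10:00 Tk averaged 841 CPM in colony 2 against 1136 in colony 1, and E74 330 against 270. The small marker E74 also had a daytime maximum in colony 2, with means of 84.5 CPM at 06:00 of day 11 and 308 at 14:00. It averaged 329 CPM at 18:00 and 226 at 22:00. In the 10:00 libraries of colony 2, Ks-1 had 61.7 and 54.1 CPM, against a mean of 24.1 over all libraries. The large and middle marker Pkc had 721 and 917 CPM there, against a mean of 825. DopR2 had 213 against 316 CPM at 10:00, and its highest colony 2 mean, 299 CPM, was at 02:00.

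The marker Mblk-1, a transcription factor of large Kenyon cells, had colony 2 means of 659 CPM at 06:00 of day 11, 2538 at 10:00 and 2411 at 18:00. Its colony 1 means lay between 1157 and 1460 CPM. For the colony difference itself, 1 of the 9 Kenyon cell genes was called, the noncoding RNA Ks-1, higher in colony 2, and none was called over time. Among markers of other cells, 3 of 4 opsins were called for colony, with log2 differences of 1.71 for Lop1, 1.13 for Blop and -0.60 for Uvop, as were 2 of 8 tested gland, fat body and hemolymph genes, 1.90 for Mrjp2 and -2.54 for Apid1. For muscle 0 of 6 tested genes were called, and Eaat-2 of glia was not called either (adjusted p = 0.618). When the 3 libraries standing apart were left out 0 of 4 opsins were called, and Mrjp2 and Apid1 still were. The part of cell composition in the colony differences of nAChRa2, nAChRa3 and nAChRa6 and in the courses of nAChRa6, nAChRa7 and nAChRa1 was not tested.

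Across the 27 libraries, with each colony centred on its own mean, log2 nAChRa6 correlated with the log2 sum of the large and middle markers at r = 0.90 (rho = 0.89). Within colony 1 r was 0.78 (n = 14), within colony 2 0.91 (n = 13) and within colony 2 without the 3 libraries standing apart 0.91 (n = 10). With the small Kenyon cell markers r was 0.72 and rho 0.46 over all 27. With the single genes Tk and DopR2 r was 0.62 and 0.51, and rho 0.34 and 0.32. For nAChRa7 the correlation with the large and middle markers was 0.96, for nAChRa1 0.77 and for nAChRa8 0.29. With Eaat-2 of glia r was -0.41 for nAChRa6, -0.49 for nAChRa7, -0.01 for nAChRa1 and -0.54 for nAChRa8. Within colony 1 it was -0.80 for nAChRa6 and -0.62 for nAChRa8. These are descriptions: the points share time points, library composition and scaling.

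**Figure D4:**
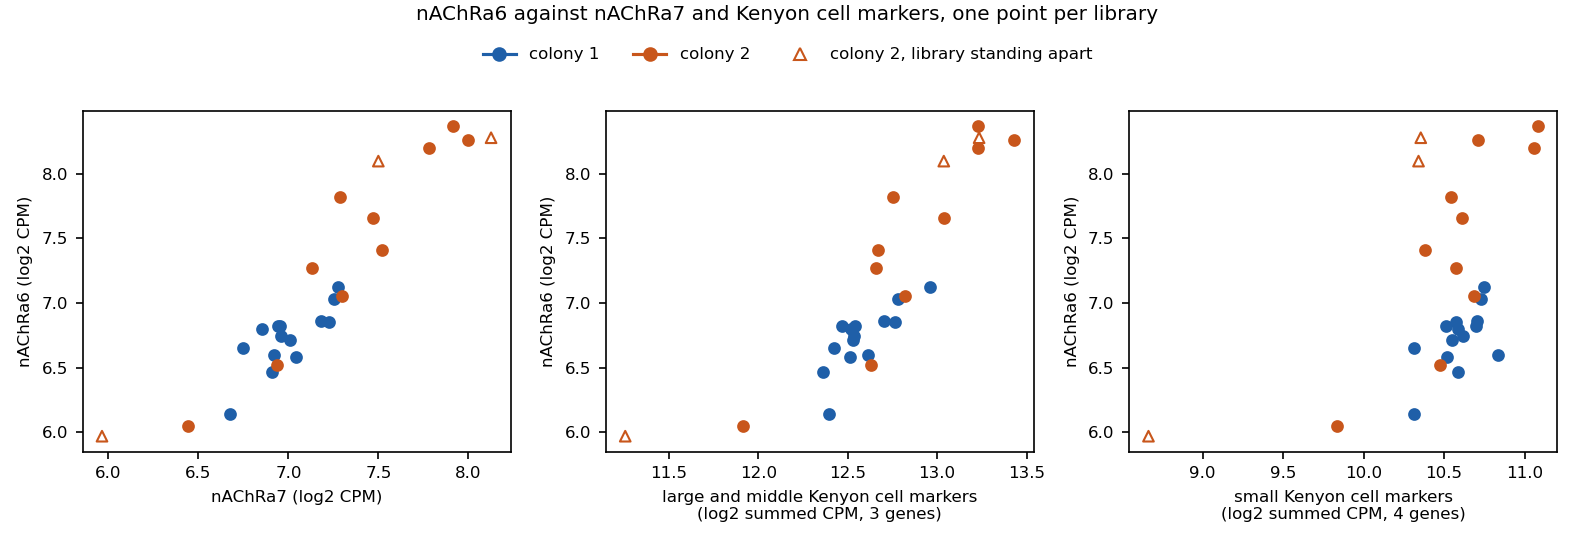
Level of nAChRa6 (log2 CPM, vertical axis) against nAChRa7, the summed large and middle Kenyon cell markers and the summed small Kenyon cell markers (log2 CPM, horizontal axes), 1 point per library. The points lie along a line with nAChRa7 (r = 0.93) and the large and middle markers (r = 0.90), and scatter more with the small markers (r = 0.72).

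The subunits also varied with each other. Over 45 pairs, colony-centred r ran from -0.44 to 0.93 with a median of 0.19, and 9 pairs were above 0.5. The closest pair was nAChRa6 and nAChRa7 (r = 0.93, rho = 0.85), with r = 0.79 in colony 1 and 0.94 in colony 2. The pair nAChRa3 and nAChRa6 had r = 0.73 over all libraries, with 0.93 in colony 2 and 0.11 in colony 1. All 9 pairs above 0.5 were among nAChRa1, nAChRa3, nAChRa6, nAChRa7 and nAChRb1. The lowest value was that of nAChRa7 with nAChRb2.

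In RefSeq's gene table of Amel_HAv3.1, which served for names and gene order, nAChRa1 and nAChRa2 are direct neighbours, nAChRa9 and nAChRb2 are direct neighbours, and nAChRa7 and nAChRb1 have 1 gene between them. The neighbours nAChRa1 and nAChRa2 had r = 0.43 over all libraries, 0.77 in colony 1 and 0.39 in colony 2, and log2 colony differences of -0.01 and -0.46. Without a stated strand setting of the counting, reads of overlapping neighbours cannot be told apart. That table lists 10 transcripts each for nAChRa3 and nAChRa4, 7 for nAChRa6 and 4 for nAChRa7. Counts are per gene and do not separate these splice forms.

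For the 2 subunits with the highest mean CPM, the genes of most similar course were searched among 225 named genes averaging at least 10 CPM. For nAChRa6 these were Para, the voltage-gated sodium channel (r = 0.92), Mad, a transcription factor of the BMP pathway (r = 0.92), and Mblk-1 (r = 0.90), over 27 colony-centred libraries. Without the 3 standing apart r was 0.90, 0.94 and 0.85. For nAChRa8 they included Csd, the sex determination gene (r = 0.63), and Dnmt1a, a DNA methyltransferase (r = 0.59). Without the 3 libraries r was 0.59 and 0.61. These genes were less similar to nAChRa8 than those named were to nAChRa6.

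Among other genes of acetylcholine signalling, 1 of the listed genes was found by name, AChE-2, an acetylcholinesterase that ends the signal. It was higher in colony 2 by 0.55 on the log2 scale with an SE of 0.0790 (adjusted p = 6.69e-05), and at 10:00 it exceeded 22:00 by 0.64 with an SE of 0.145 (adjusted p = 0.0179). It was called over time (0.0292) and for the cosine (0.0370), where 0 subunits were, and its interaction was not called (adjusted p = 0.0838). Without the 3 libraries standing apart the calls over time (adjusted p = 0.197) and at 10:00 against 22:00 (0.266) were lost, while those for colony (log2 difference 0.44, adjusted p = 0.000375) and the cosine (0.0458) were kept. These are tests of single genes, and the difference between AChE-2 and the subunits was not tested.

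Of the Cys-loop channels outside the nicotinic group, 5 were found: Grd and LCCH3, which are GABA receptor-like subunits, GluCl, a glutamate-gated chloride channel, Hiscl1, a histamine-gated chloride channel, and pHCl, a pH-sensitive chloride channel. Colony called 2 of 5, against 24.9% of all genes, both higher in colony 2, Hiscl1 by 1.08 on the log2 scale (SE 0.331, adjusted p = 0.0211) and Grd by 0.48 (SE 0.171, adjusted p = 0.0401). The interaction called 3 of 5, pHCl (adjusted p = 0.00422), GluCl (0.00551) and LCCH3 (0.0444), against 22.5% of all genes. Both colony and interaction called 0 of 5 without the 3 libraries standing apart. Over time, for the cosine and in both 12 h contrasts 0 of 5 were called. Of 2 other genes of fast glutamate transmission, Nmdar1, an NMDA receptor subunit, was lower in colony 2 by -0.45 on the log2 scale (SE 0.118, adjusted p = 0.00711) and called in the interaction (0.00175), and the transporter Eaat-2 was called for the cosine (0.0241). Of 9 amine receptors 5 were called in the interaction, 1 for colony (Dop3, lower in colony 2) and 0 over time. The interaction called 0 of these 11 genes without the 3 libraries standing apart, and the colony calls of Nmdar1 (-0.21, adjusted p = 0.0499) and Dop3 (-0.63, adjusted p = 0.00735) were kept.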

How the data were processed

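Laser-captured mushroom body tissue was sequenced as stranded poly(A) libraries, per the labels' protocols. The deposited values are raw gene counts in whole numbers. Trimmomatic, FastQC, STAR, featureCounts and DESeq2 are named, without versions or order, per the submitters' processing notes. The build, annotation, strand setting and handling of multiply matching reads are not given in the sources used here. Hence no coordinates are printed, and reads shared by similar subunits are uncertain. No sequences or transcript lengths are used here. Of 12319 identifiers, 12166 equalled a RefSeq symbol of Amel_HAv3.1, all 10 subunits among them.

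Counts were fitted in R 4.3.3 with edgeR 4.0.16 (TMM, filterByExpr by time point, robust glmQLFit and glmQLFTest) on all 27 libraries and 9816 genes, with p-values adjusted by Benjamini-Hochberg and called under 0.05. Terms were colony and time point, colony and a 24 h cosine, or colony, time point and their interaction. SE was taken as the absolute log2 difference divided by the root of F. Correlations were computed on log2 CPM (prior count 2). DESeq2 1.42.0 and limma 3.58.1 (voom with quality weights) were alternatives, as were relative log expression factors, no filter, a replicate block, summed libraries, each colony alone and leaving libraries out. The fits were tested on simulated counts. Replicates of a group differed beyond sampling noise (chi-square per degree of freedom 11.1 to 44.3 over genes with at least 20 counts). The common coefficient of variation estimated by edgeR was 0.179 for colony 1 and 0.375 for colony 2. The fits of both colonies together used a shared spread, which need not match that of either colony. A count of 0 allows 3 counts, which covers counting error only.

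The rule named every nAChR identifier, the cholinergic and Cys-loop genes found, and, for the 2 subunits with the highest mean CPM, the 3 named genes with the highest correlation. Of these, 1 is not reported here. Dop3, Nmdar1, Eaat-2 and the Kenyon cell markers are named because a count turns on them. The members and lists were chosen with earlier results of these data known, and the fits of colony 2 alone without 3 libraries, the other genes' calls without them and the ratios of means without single libraries were added after seeing the data.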

Additional observations from a re-analysis of the deposited data

Results flagged for a closer look

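The time courses of 3 subunits were singled out because they differed between colony 1 and colony 2 by the interaction test of edgeR. The adjusted p was 0.000256 for nAChRa6, 0.00508 for nAChRa7 and 0.0292 for nAChRa1. All 3 had larger ranges in colony 2, with the highest mean 4.80, 3.81 and 3.03 times the lowest, against 1.28, 1.17 and 1.59 times in colony 1. The lowest mean of colony 2 was in each case the single 06:00 day 11 library, and without it these ratios were 3.81, 2.27 and 2.21. Without the 3 libraries standing apart, which leaves 5 time points shared by the colonies, the adjusted p was 0.0422, 0.236 and 0.242. Among 60 groups of 4 libraries, each a subunit at 1 time point over both colonies, Dixon's test flagged 0 for a single distant library. With 4 libraries from 2 colonies this test can flag little, and its outcome can depend on the scale. The nAChRa9 library at 0 counts, at 10:00 in colony 2, was not flagged beside 6.34, 6.79 and 10.3 CPM. The 06:00 day 11 time point, with 3 libraries, was not examined in this way.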

How the results depend on the processing

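Of 60 subunit results 6 were called, and in 201 alternative runs of these the call was kept in 180 and lost in 21. The other 54 gained a call in 23 of 1939 runs. No called value changed sign in these runs. The time test called 0 subunits in the original fit, 2 with DESeq2 (nAChRa1 and nAChRa3), 4 with limma-voom and quality weights (these with nAChRa4 and nAChRa8), 3 in colony 2 alone, 1 in colony 2 without the libraries standing apart, and 0 to 1 when single libraries were left out (nAChRa1, adjusted p = 0.0354, without replicate 1 of 06:00 on day 11 in colony 1). The cosine called 0, but 1 in colony 1 alone, 1 in colony 2 without those libraries, and 0 to 0 with single libraries left out. The colony test called 3, but 0 with summed libraries, 2 to 4 with single libraries left out, 4 with DESeq2 and 4 with limma-voom (nAChRa7 added), 2 without the libraries standing apart and 2 with no filter (nAChRa3 lost, adjusted p = 0.105 and 0.0524). The interaction called 3, but 1 without the libraries standing apart and 1 to 4 with single libraries left out, with 1 when the 06:00 day 11 library of colony 2 was left out. At 10:00 against 22:00 the count of 0 became 1 with limma-voom, 1 in colony 1 alone and 0 to 1 with single libraries left out (nAChRa1, adjusted p = 0.0434, without the 06:00 day 11 library of colony 2). At 14:00 against 02:00 it became 1 in colony 2 without those libraries and 0 to 0 otherwise. The cause was not tested. The interaction could not be fitted on summed libraries, nor 10:00 against 22:00 in colony 2 without its 10:00 libraries. A replicate block left the counts at 0, 0, 3, 3, 0 and 0 for time, cosine, colony, interaction and both contrasts. The labels do not say whether the replicate numbers pair the samples. Replicate differences correlated between time points at -0.073 to 0.24 in colony 1 and -0.17 to 0.16 in colony 2. Of these, 5 of 21 values were above 0.1 in colony 1 and 1 of 15 in colony 2, which does not settle the pairing.

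Over all genes, the time test called 225, 818 with DESeq2, 1865 with limma-voom, 143 with the block, 0 summed (325 at an unadjusted p under 0.05), 368 in colony 1 and 2162 in colony 2. The interaction called 2209, and 9 without the libraries standing apart. The colony test called 2449, 1227 without them and 24 summed. The cosine called 423, 904 with DESeq2, 1207 with limma-voom, 874 without them, 0 summed (972 unadjusted), 520 in colony 1 and 1 in colony 2. At 10:00 against 22:00 it was 212, 520, 1003, 70 and 0 (668 unadjusted) in that order, 415 in colony 1 and 341 in colony 2, and at 14:00 against 02:00 it was 9, 145, 1024, 576 and 0 (386 unadjusted), 21 and 89. With single libraries left out these counts ran from 105 to 569 for time, 178 to 1061 for the cosine, 2044 to 2687 for colony, 78 to 535 and 2 to 235 for the contrasts, and 215 to 3134 for the interaction, with 215 without the 06:00 day 11 library of colony 2. Low counts limit nAChRa9 and nAChRb2.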
